A study of Homo sapiens with 4 samples.

Results

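The 2 ChIP libraries gave separate lists of peaks, and the regions described here are the places where a peak of one list overlapped a peak of the other by at least 1 bp on chromosomes 1 to 22. There were 179 such pairs, made of 155 of the 12236 peaks of the HA-labelled library and 145 of the 6525 peaks of the WT-labelled library on these chromosomes. The members were chosen by the peak calls themselves, so their pileups, fold enrichments and backgrounds are given as a description and no test was run on them. The study expressed HA-tagged PHF6, or the HA tag alone, in K562 cells, a human erythroleukemia cell line, and sequenced chromatin pulled down with an HA antibody together with an input for each. Each condition had 1 ChIP library and 1 input, and there were no replicates. The labels call the libraries HA and WT and do not say which of them held the tagged protein, so they are called HA-labelled and WT-labelled here. Some peaks were called with several summits in 1 region, and each summit is a row of its own; the 179 pairs came from 130 pairs of regions.

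PHF6 is a chromatin protein of the nucleus and nucleolus with zinc-knuckle and PHD-like domains, and it is recurrently mutated in T-cell leukemia. Regions that pile up reads in any ChIP library and in its input include satellite DNA beside centromeres and ribosomal RNA genes, whose copies are incompletely represented in the reference genome. RNA polymerase III transcribes tRNA genes and other short RNA genes such as RN7SK and RN7SL1, and in tRNA genes its promoter, the A and B boxes, lies inside the transcribed sequence.

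Of the 178 pairs on chromosomes with promoter sequences, 1 overlapped a promoter window, 250 bases before to 50 bases after a transcription start. Such windows were uncommon in both lists. They were reached by 2 of 154 HA-labelled peaks in a pair (1.30%) and 353 of 11399 others (3.10%). For WT-labelled peaks these were 1 of 144 (0.694%) and 45 of 6112 (0.736%). The pair reached the windows of both LIMD1-AS1 and SACM1L. The former is shown because the tRNA gene on which both peaks were centred lies inside it. The pair consisted of the HA-labelled peak chr3:45688868-45689202 and the WT-labelled peak chr3:45688894-45689154, and both summits fell within TRR-ACG2-1, an arginine tRNA gene of 73 bases. The LIMD1-AS1 window (RefSeq, GRCh38.p14, chr3:45688833-45689132, minus strand) had 265 of its 300 bases in the HA-labelled peak and 239 in the WT-labelled peak. It is printed 5′ to 3′ with the tRNA gene in capitals:
LIMD1-AS1 window: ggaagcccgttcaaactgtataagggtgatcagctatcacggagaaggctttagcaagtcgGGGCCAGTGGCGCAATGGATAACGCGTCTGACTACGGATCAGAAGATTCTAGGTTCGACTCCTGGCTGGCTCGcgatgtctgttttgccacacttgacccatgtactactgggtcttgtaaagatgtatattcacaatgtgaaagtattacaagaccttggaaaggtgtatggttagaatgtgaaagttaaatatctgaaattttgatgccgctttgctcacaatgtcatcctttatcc
The letters GGTTCGA, which belong to the B box of tRNA genes, begin at base 52 of the capitals. They were found, on either strand, in 291 of the 33725 promoter windows in the RefSeq table on these chromosomes (0.863%), which holds no windows of tRNA genes.

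The only miRNA gene at a pair was MIR8078, near the end of chromosome 18, at a pair that also overlaps the pseudogene ROCK1P1. Its mature sequence is shown because it lies wholly inside both peaks of a high-background pair (HA-labelled chr18:112175-112375, WT-labelled chr18:112195-112457). The seed, bases 2 to 8, is in capitals (RefSeq, GRCh38.p14, chr18:112266-112288, minus strand):
hsa-miR-8078: gGUCUAGGcccggugagagacuc
The pileup there was 72 tags in the HA-labelled library and 127 tags in the WT-labelled library, at fold enrichments of 2.30 and 2.82. The pileup is the number of extended ChIP tags over the summit. The fold enrichment divides it by the local background that the peak caller set for that place, after adding 1 to each.

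Pairs were a small part of both lists. In all, 1.27% of the HA-labelled peaks (95% Wilson interval 1.08% to 1.48%) and 2.22% of the WT-labelled peaks (1.89% to 2.61%) were in a pair. The intervals here cover counting error only. The ChIP libraries held 16132466 and 22257947 tags after duplicates were removed, and their inputs held 23134375 and 24567954 tags. With the different extensions of the tags, equal enrichment would give a WT-labelled pileup 1.61 times the HA-labelled one. Peaks at a −log10 q of 5 or more, called strong here, made up 2.13% of the HA-labelled list and 1.67% of the WT-labelled list on these chromosomes. They made up 68 of the 155 HA-labelled peaks in a pair (43.9%) and 55 of the 145 WT-labelled peaks in a pair (37.9%), a contrast on the same calls that chose the pairs. Read the other way, 26.1% of the HA-labelled and 50.5% of the WT-labelled strong peaks were in a pair. At the weak end, 15 pairs had a q of 1 in both lists. Such a q was less common in pairs than elsewhere. It was found for 16.1% of the HA-labelled peaks in a pair and 64.8% of the other HA-labelled peaks. For the WT-labelled library these shares were 23.4% and 60.3%.

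Many pairs lay in a few dense clusters, mostly without annotated genes. When pairs up to 100 kb apart were joined, 10 clusters had at least 3 pairs of regions, and these held 108 of the 179 pairs (60.3%) within 331 kb in all. Counted as pairs of regions, 65 of 130 were in clusters. No gene lay at 103 of the 108 pairs, and the cluster of chromosome 21 holds ribosomal RNA genes. Chromosomes 1 and 16 carried 36 and 35 pairs, of which 61 were in 4 of these clusters. In the spans of the clusters, 85 of 97 HA-labelled peaks (87.6%) and 79 of 122 WT-labelled peaks (64.8%) were in a pair, against 0.577% and 1.03% of the peaks elsewhere. The spans were drawn around pairs, so a high share inside them follows from how they were drawn. Chromosome 13 had no pair, with 207 HA-labelled and 62 WT-labelled peaks.

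About 1 in 2 pairs lay in or near the longest gene-free stretch of their chromosome. Whether that stretch holds the centromere was not checked. No centromere or repeat annotation was used here. In its place the longest stretch without an annotated gene was found on each chromosome, 21.7 Mb long on chromosome 1 and 10.4 Mb on chromosome 16. Of the 179 pairs, 75 lay inside this stretch, 90 within 1 Mb of it (50.3%, 43.0% to 57.5%) and 128 within 5 Mb of it. Within 1 Mb lay 47.7% of the HA-labelled peaks in a pair and 2.27% of the other HA-labelled peaks. For the WT-labelled library these shares were 45.5% and 5.47%. Of the clusters, 6 were within 1 Mb of the stretch, and the clusters at chr16:34571578-34595682, chr2:90380689-90398785, chr20:31063852-31106222 and chr21:8213065-8220241 were between 1.51 and 3.21 Mb from it.

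The cluster on chromosome 1 at chr1:143185057-143267427 held 23 pairs. HA-labelled pileups ran from 35 to 313 tags and WT-labelled pileups from 41 to 393 tags, while the median fold enrichments were only 2.07 and 1.86. The pair with the highest smaller −log10 q of all 179 was in this cluster, 81.7 kb from LOC101929814, the nearest gene on one side. It had 311 HA-labelled tags at a fold enrichment of 2.77, with a −log10 q of 46.3, and 393 WT-labelled tags at a fold enrichment of 2.07, with a −log10 q of 32.0. A second cluster of chromosome 1, chr1:125178887-125183830, packed 8 pairs from 5 pairs of regions into 4.94 kb. The fold enrichment was higher in the HA-labelled library in all 8, as it was in 132 of all 179 pairs. Some summits enter more than 1 of these 8 pairs, and the Poisson intervals described below overlapped in most of them.

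The cluster on chromosome 16 at chr16:46386300-46401185 had the deepest HA-labelled pileups. All its 17 pairs, from 9 pairs of regions, had the higher fold enrichment in the HA-labelled library, with medians of 1.57 and 1.27. Its highest pileups were 398 and 460 tags. Only 1 tag per position and strand was kept, so no pileup could exceed 402 tags in the HA-labelled library or 468 in the WT-labelled library. In 9 pairs, 8 of them in this cluster and 1 on chromosome 1, both pileups were at 90% or more of that limit. Only 6 HA-labelled peaks in a pair were that close to the limit, so several of the 9 pairs share summits of 1 region. The WT-labelled pileups of these pairs were 1.15 to 1.25 times the HA-labelled ones, where the limits themselves have a ratio of 1.16 and the depths a ratio of 1.61. The median log2 ratio of fold enrichment in these 9 pairs, HA-labelled over WT-labelled, was 0.35, and a ChIP and an input both at their limits would give 0.38. The part of the limit in these values was not tested.

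The other cluster of chromosome 16, chr16:34571578-34595682, held 13 pairs, with HA-labelled pileups of 80 to 343 tags, WT-labelled pileups of 152 to 428 tags and median fold enrichments of 1.76 and 1.43. On chromosome 4, 12 pairs at chr4:49102371-49149806 had HA-labelled pileups of 34 to 186 tags and median fold enrichments of 1.80 and 1.56. On chromosome 5, 11 pairs at chr5:49602438-49666852 had median fold enrichments of 1.82 and 1.61, and 1 of them, with 135 and 198 tags at fold enrichments of 3.28 and 3.18, was among the 10 pairs with the highest smaller −log10 q. On chromosome 17, 6 pairs had medians of 1.70 and 1.55. On chromosome 20, 5 pairs had medians of 2.03 and 1.97. On chromosome 2 the HA-labelled library was the lower one, with medians of 1.32 and 1.52 and a higher HA-labelled fold enrichment in 1 of 7 pairs. The cluster of chromosome 21, which holds ribosomal RNA genes, stood apart with medians of 2.99 and 5.59 over 6 pairs.

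The background was high under many of the pairs. The background at a summit, which follows from pileup and fold enrichment, had a median of 37.7 tags over the 179 pairs in the HA-labelled library (range 1.05 to 272) and 61.6 tags in the WT-labelled library (1.68 to 402). The genome-wide background was 1.05 and 1.68 tags. With 1 pair kept for each pair of regions the medians were 20.9 and 33.1 tags. Of the HA-labelled peaks in a pair, 82 of 155 (52.9%, 45.1% to 60.6%) had a background above 20 times the genome-wide value, and of the other HA-labelled peaks 20 of 12081 (0.166%). In the WT-labelled library these were 76 of 145 (52.4%, 44.3% to 60.4%) and 48 of 6380 (0.752%).

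The share of peaks in a pair climbed with the background. Of the HA-labelled peaks, 0.256% were in a pair where the background was at most 1.5 times the genome-wide value, as were 1.84% between 1.5 and 5 times, 19 of 119 between 5 and 20 times and 80.4% above 20 times. The same shares of WT-labelled peaks were 0.360%, 3.37%, 12.1% and 61.3%. The background class was the same in both libraries for 153 of the 179 pairs (85.5%).

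High pileup and low fold enrichment went together in the pairs. The HA-labelled peaks in a pair had a median pileup of 66 tags and a median fold enrichment of 2.30, and the other HA-labelled peaks had 5 tags and 2.93. The WT-labelled peaks in a pair had medians of 110 tags and 2.102, and the other WT-labelled peaks had 8 tags and 2.85. The p-value cutoff sets part of this contrast. At the genome-wide background, 4 tags, the fewest in an HA-labelled peak, already gave a fold enrichment of 2.44. At a high background lower values passed. Paired peaks were longer, with medians of 328 bp against 213 bp in the HA-labelled list and 360 bp against 262 bp in the WT-labelled list. A longer peak has more room to overlap another, so part of this contrast follows from the rule. A region with several summits also counts once for each. Among peaks with a background above 20 times the genome-wide value, the 20 HA-labelled peaks without a partner had a median pileup of 209 tags and a median fold enrichment of 1.87, and the 82 with a partner had 183 tags and 1.82. In the WT-labelled library the pileups went the other way. There the 48 without a partner had 125 tags and 1.74, and the 76 with a partner had 237 tags and 1.61.

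The pileups of the peaks of a pair followed each other closely. Over the 179 pairs, Spearman's rho was 0.963 for the pileup, 0.979 for the background, 0.816 for the fold enrichment and 0.472 for −log10 p. Pearson's r of the log2 values was 0.940, 0.983, 0.655 and 0.461. These are descriptions across pairs that share libraries and, within clusters, neighbouring sequence. Summits of 1 region also enter several pairs. The agreement differed between classes of background. In the 27 pairs with an HA-labelled background of at most 1.5 times the genome-wide value, rho was 0.497 for the pileup and 0.338 for the fold enrichment. In the 27 pairs between 1.5 and 5 times it was 0.147 and 0.200, in the 22 pairs between 5 and 20 times 0.298 and 0.597, and in the 103 pairs above 20 times 0.947 and 0.609. Outside the clusters, over 71 pairs, rho was 0.763 and 0.415.

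The fold enrichment was higher in the HA-labelled library in 132 pairs and in the WT-labelled library in 47. The median log2 ratio was 0.20 (quartiles −0.02 and 0.37, range −2.63 to 1.99), a median ratio of 1.15. In 144 pairs (80.4%) the log2 ratio was within 0.5 of 0. The WT-labelled pileup was a median 1.39 times the HA-labelled one and the WT-labelled background a median 1.55 times the HA-labelled one, against the depth ratio of 1.61. The summits were a median 42 bp apart, 118 pairs had them within 100 bp, and 147 pairs overlapped over 50% of both peaks. Exact 95% Poisson intervals of the pileup, with the background held fixed, were carried to the fold enrichment. These intervals did not overlap in 37 of the 179 pairs (20.7%), with the HA-labelled fold enrichment above in 28 pairs and the WT-labelled one above in 9. With 1 pair kept for each of the 130 pairs of regions, these counts were 20 and 8. The intervals leave out the error of the input and the spread between cultures, which 1 library per condition cannot give.

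Pairs at RNA genes departed furthest as groups, in opposite directions. Of the 9 pairs with a log2 ratio above 1, 7 were at tRNA genes. At tRNA genes, which supply the adaptors of translation, 10 pairs had a median log2 ratio of 1.37, and all 10 were higher in the HA-labelled library. The intervals did not overlap in 5 of these 10 pairs, all with the HA-labelled library above, beside 20.7% of all pairs. The 10 pairs share 8 WT-labelled peaks, so they are not 10 separate places. They covered 9 of the 425 annotated tRNA genes on these chromosomes. All 8 WT-labelled peaks at a tRNA gene were in a pair, while 243 HA-labelled peaks at tRNA genes had no partner. The 10 HA-labelled peaks with a partner had a median pileup of 39 tags and a median fold enrichment of 7.61, and the 243 without one had 23 tags and 5.11. None of the 8 WT-labelled peaks was strong, and 9 of their 10 HA-labelled partners were.

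TRR-ACG2-1, shown above, had 45 HA-labelled tags at a fold enrichment of 7.82 and 13 WT-labelled tags at 2.53. At TRA-TGC3-1, an alanine tRNA gene, 37 tags at 7.94 stood against 12 tags at 2.02, the highest log2 ratio among tRNA genes (1.98). The background there was 3.78 and 5.44 tags, so the HA-labelled library had both the higher pileup and the lower background. At TRP-TGG2-1, a proline tRNA gene, the HA-labelled region had summits of 36 and 52 tags at fold enrichments of 8.21 and 11.8, and the WT-labelled peak had 20 tags at 3.85.

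The leucine tRNA genes TRL-CAG2-1 and TRL-CAG2-2 lay under 1 HA-labelled region with a summit in each gene, of 58 and 41 tags at 7.40 and 9.36. The WT-labelled peak had 1 summit outside both genes, 46 bp from TRL-CAG2-2, with 19 tags at 2.97. TRL-TAG1-1, another leucine tRNA gene, had 22 tags at 6.07 and 7 tags at 2.26. The remaining tRNA genes were closer between the libraries. TRG-CCC1-1 (glycine) had 67 and 23 tags at 4.77 and 2.91, TRV-AAC1-3 (valine) 17 and 12 tags at 4.01 and 2.80, and TRX-CAT1-8 33 and 13 tags at 5.78 and 4.15. Copies of tRNA genes can be near identical, so reads may be split between them.

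VTRNA1-3, a vault RNA gene also transcribed by RNA polymerase III, stood with the tRNA genes. It had the highest HA-labelled fold enrichment and the highest log2 ratio of all pairs (1.99), with 32 tags at 13.0 in the HA-labelled library and 12 tags at 3.28 in the WT-labelled library. The HA-labelled summit was inside the gene and the WT-labelled summit 62 bp outside it. The other 3 genes of the fixed list of 18 RNA polymerase III genes that had a pair went the opposite way. RN7SK, the RNA that holds the elongation factor P-TEFb, had 15 tags at 4.06 and 92 tags at 15.8. RN7SL1, the RNA of the signal recognition particle, had 18 tags at 5.62 and 108 tags at 17.9. This pair also overlaps RPS29, a ribosomal protein gene. RMRP, the RNA of the RNase MRP complex, had 16 tags at 3.79 and 34 tags at 5.37, with overlapping intervals.

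RNA45SN2, a copy of the ribosomal RNA precursor gene on chromosome 21, showed the same direction as RN7SK. Its 5 pairs, made from 3 summits in each library, had HA-labelled pileups of 25 to 52 tags and WT-labelled pileups of 52 to 112 tags. All 5 were higher in the WT-labelled library, with a median log2 ratio of −1.13. At RNA28SN2, the part that encodes the RNA of the large ribosomal subunit, the closest summits were 9 bp apart, with 27 tags at 2.99 and 78 tags at 8.63. The background there was 8.37 and 8.15 tags, a smaller difference than the depth ratio of 1.61 would give. The ribosomal RNA genes are repeated on several chromosomes, so these values cannot be assigned to this copy. In all, 2 of the 515 annotated symbols on the ribosomal RNA list had a pair. That list was drawn by patterns of symbols, which also fit the symbols of ribosomal RNA pseudogenes.

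HBB, the adult beta-globin gene, had the lowest log2 ratio of all pairs. The HA-labelled peak had 10 tags at a fold enrichment of 3.56, with a −log10 q of 0.651, and the WT-labelled peak 101 tags at 22.1, with a −log10 q of 99.2. This was the highest WT-labelled fold enrichment among the pairs. The summits were 256 bp apart, both within the gene, and the intervals did not overlap. None of the other 7 globin genes on the list had a pair. A single pair outside any gene had a log2 ratio below −1, at chr5:47111274-47111519 in the HA-labelled list, with 17 tags at 2.26 and 25 tags at 5.62.

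Genes were uncommon at the pairs. No annotated gene lay under both peaks of 128 pairs. Of the HA-labelled peaks in a pair 69.0% were in no gene and 15.5% were in a protein-coding gene as the leading class. Of the other HA-labelled peaks 40.0% and 43.9% were. For WT-labelled peaks in a pair the shares were 69.7% and 15.2%, and for the others 44.7% and 41.0%. At a tRNA gene were 6.45% of the HA-labelled peaks in a pair (3.54% to 11.5%) and 2.01% of the others, and 5.52% (2.82% to 10.5%) and 0 of 6380 WT-labelled peaks.

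**Figure D1:**
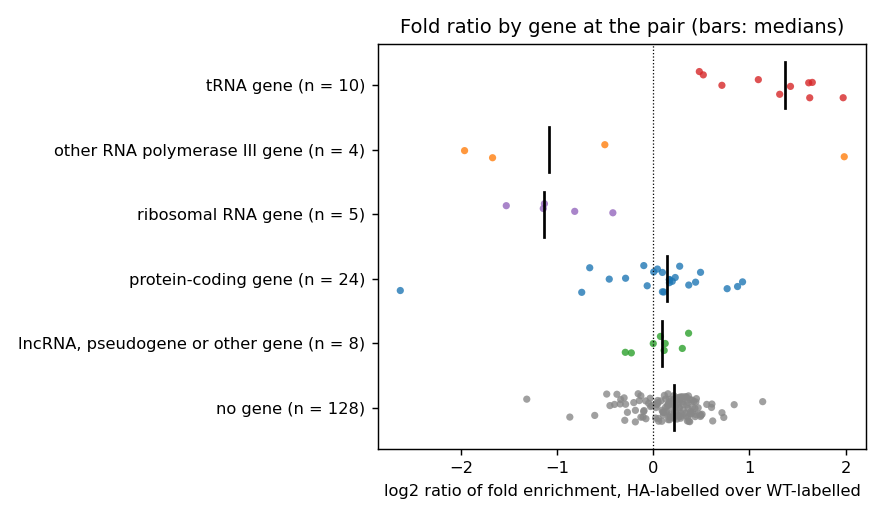
The log2 ratio of fold enrichment, HA-labelled over WT-labelled (x axis), for each of the 179 pairs by the class of gene at the pair, with bars at the medians. The medians are 1.37 at tRNA genes, −1.13 at ribosomal RNA genes, 0.14 at protein-coding genes and 0.22 at pairs with no gene.

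The 24 pairs in protein-coding genes were mostly weak. In 19 of them neither pileup exceeded 15 tags, 9 had a q of 1 in both lists, and their median log2 ratio was 0.14. A single one was strong in both lists. It was in DUX4, a transcription factor gene of the repeat array at the end of chromosome 4, with 213 tags at 2.25 and 295 tags at 2.11 over backgrounds of 94.1 and 140 tags. A second pair in DUX4 had 30 tags at 1.75 and 55 tags at 2.93. DUX4L26, a pseudogene of the same family on chromosome 3, also had a deep pair, with 188 tags at 1.84 and 290 tags at 2.15.

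NOTCH1, which encodes a receptor that directs T-cell fate, had 3 HA-labelled summits of 13, 12 and 12 tags at fold enrichments of 4.53, 6.13 and 6.35, all paired with 1 WT-labelled peak of 8 tags at 3.34. The closest of them was 19 bp from the WT-labelled summit and the farthest 934 bp. BCAT2, a branched-chain aminotransferase gene, had 23 tags at 4.08 and 8 tags at 2.40. H3C2, a replication-dependent histone gene, had 14 tags at 2.88 and 15 tags at 2.23. None of the WT-labelled peaks at NOTCH1, BCAT2 and H3C2 was strong. The −log10 q was 0.22 at NOTCH1 and lower at BCAT2 and H3C2. Of the HA-labelled summits at these genes only the NOTCH1 one at 6.35 was strong, with a −log10 q of 5.14. The zinc finger genes ZNF678 and ZNF831, the members with a pair among 670 annotated ZNF genes, each had 6 and 7 tags. At this depth such values differ by few tags from the fewest that made a peak, 4 in the HA-labelled and 6 in the WT-labelled list. Neither BCR nor ABL1, the genes fused in K562 cells, had a pair, nor did JAK3, STAT5A or STAT5B, which are on a fixed list of genes of the signalling pathways under study.

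Pairs outside both genes and clusters numbered 25, and 13 of these were within 1 Mb of the longest gene-free stretch. Their median pileups were 9 and 16 tags and their median fold enrichments 3.08 and 2.56. The pair at chr20:26474822-26475037 in the HA-labelled list had 16 tags at 7.52 and 30 tags at 6.70, and with RN7SL1 it was 1 of the 2 pairs with a fold enrichment of at least 5 in both lists. On chromosome 21 the summits of a pair with 60 tags at 3.08 and 87 tags at 2.55 fell on the same base.

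At the edge of the rule, the smallest overlaps described here were 2 bp on chromosome 12, 6 bp in TFEC and 12 bp in COL8A2. Their pileups were 5 to 8 tags in the HA-labelled list and 6 to 9 tags in the WT-labelled list. Just outside it, the nearest peaks that did not overlap were 2 bp apart on chromosome 7, with 5 and 6 tags at fold enrichments of 2.93 and 2.41, and 16 bp apart on chromosome 1, with 8 and 7 tags at 2.91 and 2.98.

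Of the strongest pairs, 8 of the 10 pairs with the highest smaller −log10 q were in clusters without genes, 5 on chromosome 1 and 2 on chromosome 16. The other 2 were the DUX4 pair above and a pair in the lncRNA gene LOC112268408 on chromosome 18, with 254 tags at 2.21 and 364 tags at 2.04. All 10 had the higher fold enrichment in the HA-labelled library, as did 132 of all 179 pairs. In most of the 10 the intervals of the 2 libraries overlapped. Of the 41 pairs that were strong in both lists, 36 had an HA-labelled background above 20 times the genome-wide value, 34 had no gene and none was at a tRNA gene.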

How the data were processed

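ChIP-seq peaks of 1 HA-labelled and 1 WT-labelled library of K562 cells were analysed. Per the labels' processing notes, the authors used BWA 0.7.12 and MACS2 2.1.0. Per the file headers, peaks were called for each ChIP library against its own input at a p-value cutoff of 0.005, with extensions of 201 bp (HA-labelled) and 234 bp (WT-labelled), a genome size of 3099750718, splitting at summits and at most 1 tag per position and strand. The deposited pileup is a signal in tags at the summit, the deposited fold enrichment is a ratio to the local background, and the p-value and q-value of each peak were deposited as −log10. A genome build is not given in the sources used here; sequence names are those of GRCh38, and genes, promoters and miRNAs came from RefSeq tables of GRCh38.p14.

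Peaks were paired by an overlap of at least 1 bp. The background was (pileup + 1)/fold − 1, and the genome-wide background was tags times extension over genome size. A gene at a pair overlapped both peaks. Gene classes were assigned in the order tRNA, RNA polymerase III list, small nuclear, nucleolar and ribosomal RNA, protein-coding, lncRNA, pseudogene. Promoter sequences of 1 autosome were not used here. The genes named were those at the 10 pairs of highest smaller −log10 q, at the 5 highest and 5 lowest log2 ratios of fold enrichment, with their neighbours where there was none, and those on the gene lists. DUX4L26, NOTCH1, BCAT2, H3C2, TFEC, COL8A2, MIR8078 and the paired regions described beside them were added after their values were seen, and some genes are not reported here. The members and lists were chosen with earlier results of these data known. Shares have 95% Wilson intervals. Pairing, merging and the background were tested on simulated data. The versions used were scipy 1.17.1, numpy 2.4.6, pandas 2.3.3, matplotlib 3.10.9 and Python 3.11.15.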

Additional observations from a re-analysis of the deposited data

Results flagged for a closer look

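Peaks outside chromosomes 1 to 22 were not part of the regions described above, and 85 pairs of overlapping peaks were found there, made of 57 HA-labelled and 67 WT-labelled peaks. Of these 85 pairs, 76 were on contigs, among them 21 on KI270733.1 and 18 on KI270438.1. Their HA-labelled pileups ran from 8 to 377 tags, and over all 85 pairs the median fold enrichments were 2.08 and 2.11 and the median log2 ratio was 0.10.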

How the results depend on the processing

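Of 79 values under other settings, 47 stayed within the limits set around the main value, which were 1.5 times for the count of pairs, 0.1 for correlations and the 95% interval for shares and medians, and the median log2 ratio of fold enrichment stayed above 0 in 6 of 7 settings. With both peaks at a −log10 q of 5 or more, 41 pairs were left, with 14.6% of HA-labelled and 34.9% of WT-labelled peaks in a pair, median backgrounds of 108 and 162 tags and 65.9% of pairs near the gene-free stretch. With a fold enrichment of 5 or more in both, only 2 pairs were left (5.56% of WT-labelled peaks), with median fold enrichments of 6.57 and 12.3, a log2 ratio of −0.75, backgrounds of 1.82 and 4.36 tags, and too few pairs for a correlation. Summits within 100 bp left 118 pairs, with 0.964% and 1.78% of the peaks. A reciprocal overlap of 50% gave 1.046% and 1.78% of the peaks and 57.8% of pairs near the stretch. Merging peaks within 500 bp gave 1.02% and 1.84% of the peaks, fold enrichments of 2.44 and 2.18 and backgrounds of 16.7 and 26.3 tags. With all sequences, 1.67% and 3.08% of the peaks were in a pair. Taking 1 pair per pair of regions, an alternative chosen after seeing the data, gave 1.07% of HA-labelled peaks, fold enrichments of 2.39 and 2.15 and backgrounds of 20.9 and 33.1 tags. Of the pairs, 41.9% lay inside the stretch and 71.5% within 5 Mb of it. The cause of these changes was not tested. No paired analysis was possible because the design had 1 ChIP library for each condition. Without replicates the spread between cultures is unknown, and pairs of a few tags are too shallow to rank the libraries.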
